A study of Mus musculus with 6 samples.

Results

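The non-IPN cells of the embryonic mouse cortex were compared between embryonic days 13.5 and 16.5 (E13.5 and E16.5). These 2 libraries were chosen by their labels, as the non-IPN libraries of those days, out of 6 libraries in the series. Embryos of both populations and both days were of the C57BL/6J strain and carried 2 fluorescent reporters. They came from crosses of heterozygous Tbr2(Eomes)-GFP mice with DCX-mRFP homozygotes, and embryos positive for both colors were used. Eomes is a transcription factor of intermediate progenitors, and Dcx (doublecortin) is a microtubule-binding protein that young neurons make. Cortical cells were dissociated and sorted by fluorescence, per the labels' protocols. Double-positive cells are the neurons derived from intermediate progenitors (IPN). Red cells without green are the non-IPN population. A sort on red fluorescence without green names no single cell type, and its purity is measured here only through marker genes. At E13.5 and E16.5, 10000 cells were collected per population and their RNA was amplified with the Ovation RNA-Seq System V2 before library preparation. The labels do not say how many embryos gave cells to a library. The E15.5 libraries, from 1000000 cells without amplification, are used only where stated, to choose genes or to give a gene's level on the day between.

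Cortical neurons come from 2 sources. Glutamatergic projection neurons are born from radial glia of the cortex itself, either directly or through intermediate progenitors that express Eomes. Inhibitory interneurons, which use GABA, are born in the medial and caudal ganglionic eminences below the cortex and migrate into it during these days. The cortex of this age also holds dividing radial glia, microglia, blood vessels and the red cells inside them.

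Levels are in VPM, the deposited value of a gene scaled so that each library sums to 1000000. A change is the log2 ratio of E16.5 over E13.5 after adding 1 VPM to both values. With 1 library per day there is no replicate check, no error and no p-value for any value below, and a difference between these 2 libraries cannot be told apart from a difference between 2 samples of the same day. A gene is said to have risen or fallen when it was at least 2-fold higher or lower, that is, past 1 or -1 on the log2 scale. Because of the added 1 VPM, this scale understates the change of low genes. Genes were counted when their mean over the 2 libraries was at least 5 VPM, which held for 10065 of 20367 genes. A gene low on 1 day passes this filter through its level on the other day. For many lists the median over all members found is therefore also given. In sorted bulk samples, fewer cells of a type and less RNA per cell cannot be told apart.

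Of the 10065 genes, 2220 were higher at E16.5, which is 22.1% of them, and 1491 were lower, which is 14.8%. These 2 shares are the background for each count of risen or fallen list members below. Of the genes that moved 59.8% were higher, and with the median ratio of all genes set to 0 this was 49.3%. The median log2 ratio was 0.19, with quartiles of -0.55 and 0.89. Genes above 0 numbered 17195 at E13.5 and 16426 at E16.5. The fallen genes lost 18.2% of the column total between the 2 days, and the risen genes gained 18.01%. The hemoglobin list took 27.0% of that loss and the progenitor lists 9.88%. The neuron lists took 12.99% of the gain and the interneuron lists 4.87%. The plot of E16.5 against E13.5 values shows where these lists lie among all genes.

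**Figure D1:**
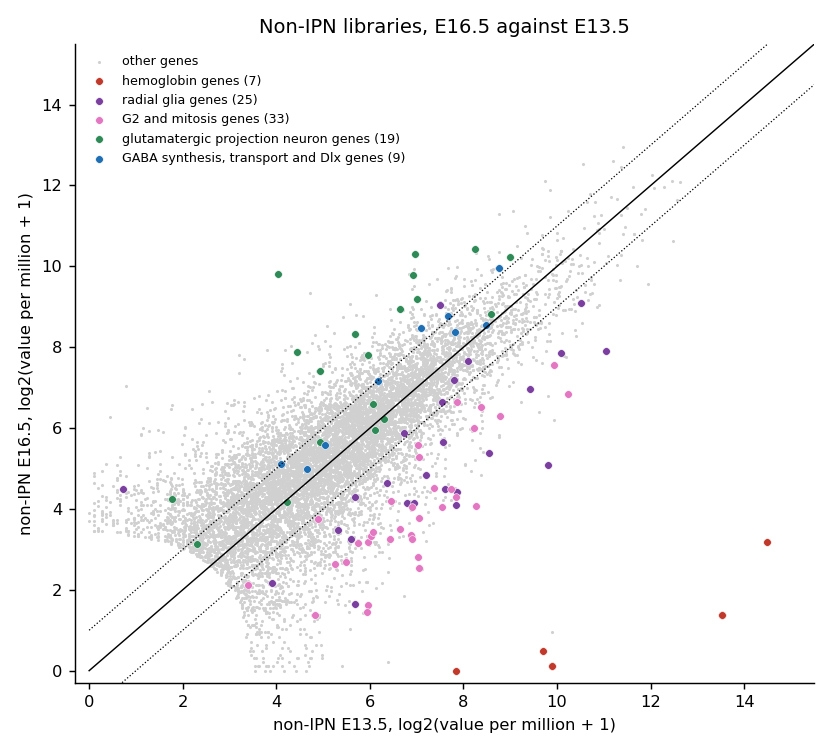
Level of each of 10065 genes in non-IPN cells at E13.5 (x axis) and E16.5 (y axis), both as log2(VPM + 1), with the line of equal level and dotted lines at 2-fold. The 7 hemoglobin genes lie far below the line, all 33 G2 and mitosis genes lie below the lower dotted line, and 12 of 19 projection neuron genes lie above the upper one.

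Eomes and Dcx, the genes behind the reporters of the sort, moved in opposite directions. Eomes was at 214 VPM in non-IPN at E13.5 and at 72.0 at E16.5, beside 437 and 98.4 in IPN. At E15.5 it was at 72.5 in non-IPN and 102 in IPN. Eomes transcript was thus present in the cells sorted without green fluorescence on each day, below its level in IPN. Dcx rose in non-IPN from 856 to 4448 VPM, a log2 ratio of 2.38, and was at 1392 and 3270 in IPN. At E15.5 it was at 4643 in non-IPN and 2863 in IPN.

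Cell type markers showed a mixture on both days. Tubb3, a neuronal tubulin, went from 114 to 346 VPM and Gad2 from 433 to 989. The radial glia factor Sox2 was present on both days, at 221 and 146. Csf1r, the growth factor receptor that microglia depend on, was at 118 and 71.7. Endothelial Pecam1 and Cdh5, pericyte Pdgfrb and Rgs5, and meningeal Col1a1 and Col1a2 were all below 2 VPM on both days, and endothelial Cldn5 was listed at 0 on both. Other meningeal genes went both ways, with Dcn at 0.0715 and 3.74 and Lum at 0 and 3.66. Crabp2, the 1 counted gene of the meningeal list, fell from 21.8 to 1.03 VPM (log2 ratio -3.49). The summed level of that list went from 25.0 to 14.2 VPM.

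Of the 9 counted genes of GABA synthesis, transport and the Dlx family, 4 rose and none fell, beside 22.1% and 14.8% of all genes. Gad2, which makes GABA, rose from 433 to 989 VPM (log2 ratio 1.19). Dlx1 rose from 136 to 357 (1.39) and Dlx2 from 203 to 436 (1.10); both are homeodomain factors that specify GABAergic neurons. Slc32a1, which loads GABA into vesicles, rose from 16.2 to 33.5 (1.01). The other 5 stayed within 2-fold. Gad1, the other GABA-synthesizing enzyme, went from 224 to 329 (0.55). The list median was 0.99, or 0.77 over all 10 members found, and its summed level went from 1500 to 2737 VPM. Several members lay close to the 2-fold line: with the median ratio of all genes set to 0, only 1 of 9 passed it. With values as deposited 2 passed it, and with blood and progenitor genes left out of the totals 3 did.

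Levels of these genes in IPN were low. Over the 3 days in order, Gad1 was at 9.11, 5.57 and 2.60 VPM in IPN, beside 224, 451 and 329 in non-IPN. Gad2 was at 6.53, 7.84 and 20.7 in IPN, beside 433, 573 and 989. On both E13.5 and E16.5, 8 of the 9 members were at least 4-fold higher in non-IPN than in IPN. The shares over all genes were 6.92% at E13.5 and 4.03% at E16.5.

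Genes of interneurons from the medial eminence changed more unevenly. Lhx6, a LIM-homeodomain factor that medial eminence interneurons keep while they migrate, rose from 36.7 to 326 VPM, a log2 ratio of 3.12. At E15.5 it was at 1164 in non-IPN, and in IPN it was at 0.129, 14.6 and 7.04 on the 3 days. Maf, a transcription factor of the same cells, rose from 103 to 329 (1.67). Npas1, a bHLH factor of the same cells, rose from 0.215 to 13.4 (3.56), and Nxph1, a secreted neurexin ligand, from 64.2 to 155 (1.26). Zeb2 rose from 431 to 2502 (2.53), but it also rose in IPN, from 583 to 2154.

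The peptide Sst went the other way. This neuropeptide, somatostatin, marks a class of medial eminence interneurons, and it fell from 147 to 40.2 VPM (log2 ratio -1.85). It was at 365 in non-IPN at E15.5, in the library made without amplification. Lhx6, Dlx1 and Npas1 were also higher in that library than on either other day, at 1164, 1300 and 143. In all, 7 of the 14 counted medial eminence members rose and 1 fell, beside 22.1% and 14.8% of all genes. The list median was 1.09, or 0.91 over all 16 found. Nkx2-1 and Lhx8, factors of the medial eminence itself that cortical interneurons switch off, were too low to be counted. They went from 3.79 to 0.477 and from 8.94 to a listed value of 0.

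Genes of the caudal eminence moved in both directions. Htr3a, the ionotropic serotonin receptor, rose from 0.572 to 27.5 VPM (4.18), and Adarb2, a gene of the RNA-editing enzyme family, from 0.501 to 26.3 (4.19). Members this low at E13.5 were counted only because they were high at E16.5; Calb2 (calretinin), at 2.00 and 0.477, was not counted. Prox1, a homeobox factor, rose from 1.57 to 20.5 (3.06). Npas3 rose from 34.5 to 105 (1.58). Nr2f1 (COUP-TFI) fell from 602 to 193 (-1.64), and Nr2e1 (Tlx) fell from 65.3 to 11.6 (-2.39). Both are also expressed by cortical progenitors, and Nr2f1 went from 658 to 189 in IPN. Nr2f2 (91.4 and 52.0) and Sp8 (80.7 and 41.2) stayed within 2-fold.

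Of 10 counted caudal eminence members, 5 rose and 2 fell, with a median of 0.69. The shares over all genes were 22.1% and 14.8%, so the fallen share was near the background. That median has no stable sign: it was -0.05 over all 14 found and -0.95 over members with a mean of at least 20 VPM. The summed level, which the high members dominate, went from 888 to 497 VPM.

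Among peptides and calcium-binding proteins, 2 of 8 counted members rose and 2 fell, beside 22.1% and 14.8% of all genes, so the risen share was near the background. Tac1, the precursor of substance P, fell from 46.7 to 1.03 VPM (-4.55). Npy (neuropeptide Y), at 40.6 and 70.9, and Calb1 (calbindin), at 63.2 and 35.5, stayed within 2-fold. Pvalb (parvalbumin) and Vip, markers of mature classes, were listed at 0 or below 0.1 VPM on both days. The lateral eminence and striatal list had 3 of 10 counted members higher and 3 lower. Its median was 0.38 (0.07 over all 22 found), and its homeobox gene Meis2 fell from 576 to 257 (-1.16).

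Among the interneuron lists, migration genes rose most: 10 of 14 counted members rose and none fell, beside 22.1% and 14.8% of all genes. Their median was 1.99 (1.71 over all 17 found). Erbb4, the neuregulin receptor of migrating interneurons, rose from 16.1 to 170 VPM (3.32), while in IPN it was at 2.84 and 2.33. Cxcr4, a receptor for the chemokine Cxcl12, rose from 12.1 to 48.8 (1.93). Cxcr7, the other Cxcl12 receptor, rose from 235 to 537 (1.19). Much of the rest of this list is shared with projection neurons: Robo1, the receptor for Slit guidance cues, rose from 26.0 to 273 in non-IPN and went from 61.1 to 562 in IPN. The list also holds Dcx, which is on the pan-neuronal list too.

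**Figure D2:**
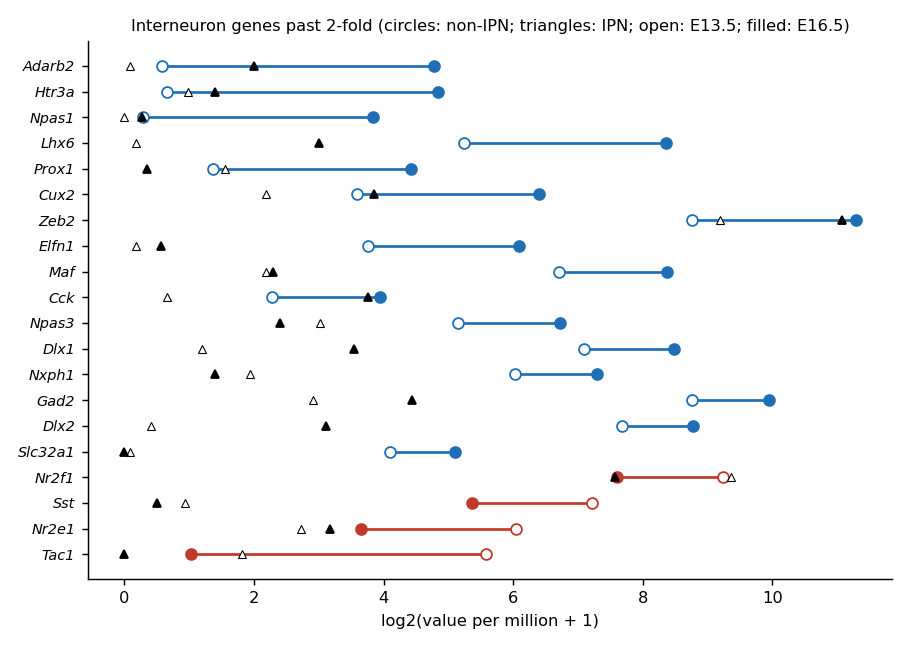
Level of the 20 members of the GABA, medial eminence, caudal eminence and peptide lists that rose or fell in non-IPN, as log2(VPM + 1), in non-IPN (circles) and IPN (triangles) at E13.5 (open) and E16.5 (filled). Blue marks the 16 genes that rose and red the 4 that fell, of 37 counted members, beside 22.1% and 14.8% of all genes.

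To leave out interneuron list genes that projection neurons share, members were taken that were at least 4-fold higher in non-IPN than in IPN at E15.5, a choice made after the data were seen but on libraries that the ratio does not use. Of 34 such genes 31 were counted: 17 rose (54.8%, beside 22.1% of all genes) and 2 fell (6.45%, beside 14.8%), Sst and Tac1. Their median was 1.10, and their median in IPN was 0.09. Their summed level went from 2892 to 5646 VPM, 1.95-fold.

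The median changes of the GABA, medial eminence and caudal eminence lists lay below that of genes that all neurons share, an order with no test, and that of the migration list lay 0.41 above it. Of 27 counted pan-neuronal genes 19 rose and none fell, beside 22.1% and 14.8% of all genes. Their median was 1.58 (1.55 over all 28 found). Mtap1b, the microtubule-associated protein 1B gene, rose from 923 to 3771 VPM (2.03). Snap25, part of the vesicle fusion machinery, rose from 152 to 752 (2.30), and Rbfox1, a neuronal splicing factor, from 18.8 to 260 (3.72). Stmn1, a tubulin-binding protein also abundant in progenitors, went from 1588 to 3068, a log2 ratio of 0.95. The median of the GABA list was 0.59 below the pan-neuronal median, that of the medial eminence list 0.48 below and that of the caudal eminence list 0.89 below. The 31 interneuron genes chosen at E15.5 lay 0.48 below it. Against the pan-neuronal sum, which went from 7422 to 21033 VPM, the summed GABA list went from 20.2% to 13.01%, the medial eminence list from 17.97% to 20.8% and the migration list from 24.6% to 32.0%. The medial eminence sum is led by Zeb2, which also rose in IPN, and its share without Zeb2 was not calculated. Dcx, at 856 and 4448 VPM, made up much of the migration sum of 1824 and 6721 VPM. It is also part of the pan-neuronal sum, so the rise of the migration share cannot be read apart from Dcx. For the medial eminence list the order turned when only members on no other list were used, with a median 0.12 above that of the pan-neuronal list.

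Taking blood and progenitor genes out of the totals lowered the median of all genes by 0.09. Genes of the blood, immune, vascular and progenitor lists made up 7.97% of the E13.5 column total and 1.64% of the E16.5 total. With all of them taken out of both totals, the median of all genes moved from 0.19 to 0.10. The GABA list median moved from 0.99 to 0.89 and the pan-neuronal median from 1.58 to 1.48. A change of total moves all but low genes alike, so the distances between list medians were bound to stay nearly the same.

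Genes of glutamatergic projection neurons rose more than the GABA list. Of 19 counted members 12 rose and none fell, beside 22.1% and 14.8% of all genes. The list median was 2.18 (1.85 over all 21 found), 0.61 above the pan-neuronal median. Id2, an inhibitor of bHLH factors, rose from 123 to 1271 (3.36). Mef2c, a transcription factor of maturing neurons, rose from 120 to 877 (2.86). Neurod6, a bHLH factor of projection neurons, rose from 99.2 to 489 (2.29), and Tbr1, a deep-layer factor, from 61.3 to 224 (1.85). Slc17a7, the vesicular glutamate transporter of mature cortex, was below 1 VPM on both days. The summed level went from 2110 to 8416 VPM, 3.99-fold. Its level in IPN was higher on both days, at 8830 and 16402.

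At E15.5, 220 genes were at least 4-fold higher in IPN than in non-IPN, and 153 of them were counted here. In the non-IPN comparison 108 of these 153 rose (70.6%, beside 22.1% of all genes) and 8 fell, with a median of 1.79. They rose in IPN too, where their median was 1.40. Genes at least 4-fold higher in non-IPN at E15.5 behaved differently: 88 of 380 rose (23.2%) and 113 fell (29.7%, beside 14.8% of all genes), with a median of -0.21. The summed level of the 220 genes went from 6114 to 19555 VPM in non-IPN.

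Among layer genes the upper-layer list had the higher median. Of 16 counted upper-layer genes 13 rose and 1 fell, with a median of 2.00. Among the risen were Plxna4, a semaphorin co-receptor (28.5 to 262 VPM, 3.15), and Pou3f2, a POU factor of upper layers (56.1 to 222, 1.97). The fallen one was Lhx2, a factor that radial glia also express, from 1085 to 230 (-2.23). Deep-layer and subplate genes had 7 of 15 members higher and 1 lower, beside 22.1% and 14.8% of all genes, with a median of 0.36. Sox5 rose from 86.8 to 410 (2.23) and Bcl11b (Ctip2) from 116 to 295 (1.34). Fezf2, which specifies subcerebral neurons and is expressed in their progenitors, went from 88.2 to 45.1, within 2-fold.

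Of 8 counted Cajal-Retzius genes, which mark the earliest neurons of the marginal zone, 3 rose and 4 fell. The shares over all genes were 22.1% and 14.8%. The list median was -0.38, or -1.02 over all 13 found. The risen members were Cacna2d2, Cxcr4, which is also on the migration list, and A930038C07Rik, which also rose in IPN (5.08). Trp73, the p73 gene that marks these cells, fell from 32.5 to 6.12 VPM (-2.24), and Ebf2 fell from 18.4 to 0.397 (-3.80). Reln, the secreted protein of Cajal-Retzius cells and later of interneurons, went from 304 to 573, within 2-fold.

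Synaptic and receptor genes rose with the pan-neuronal list, and the shares over all genes were 22.1% higher and 14.8% lower. Of 24 counted genes of vesicles and release 16 rose and none fell, with a median of 1.66. Nrxn3, a presynaptic adhesion receptor, rose from 118 to 448 VPM (1.91) and was at 0.840 and 5.40 in IPN. Of 13 glutamate receptor genes 11 rose and none fell (median 1.70). Gria1 rose from 48.4 to 198 (2.01), and Grin2b, an NMDA receptor subunit, from 1.14 to 56.1 (4.74). Of 8 genes of GABA receptors and chloride transporters 6 rose and none fell (median 1.66). Gabrb2, a GABA-A receptor subunit, rose from 17.1 to 243 (3.75). Slc12a5, the chloride exporter of mature neurons, rose from 14.2 to 40.8 (1.47), while the importer Slc12a2 went from 153 to 124.

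**Figure D3:**
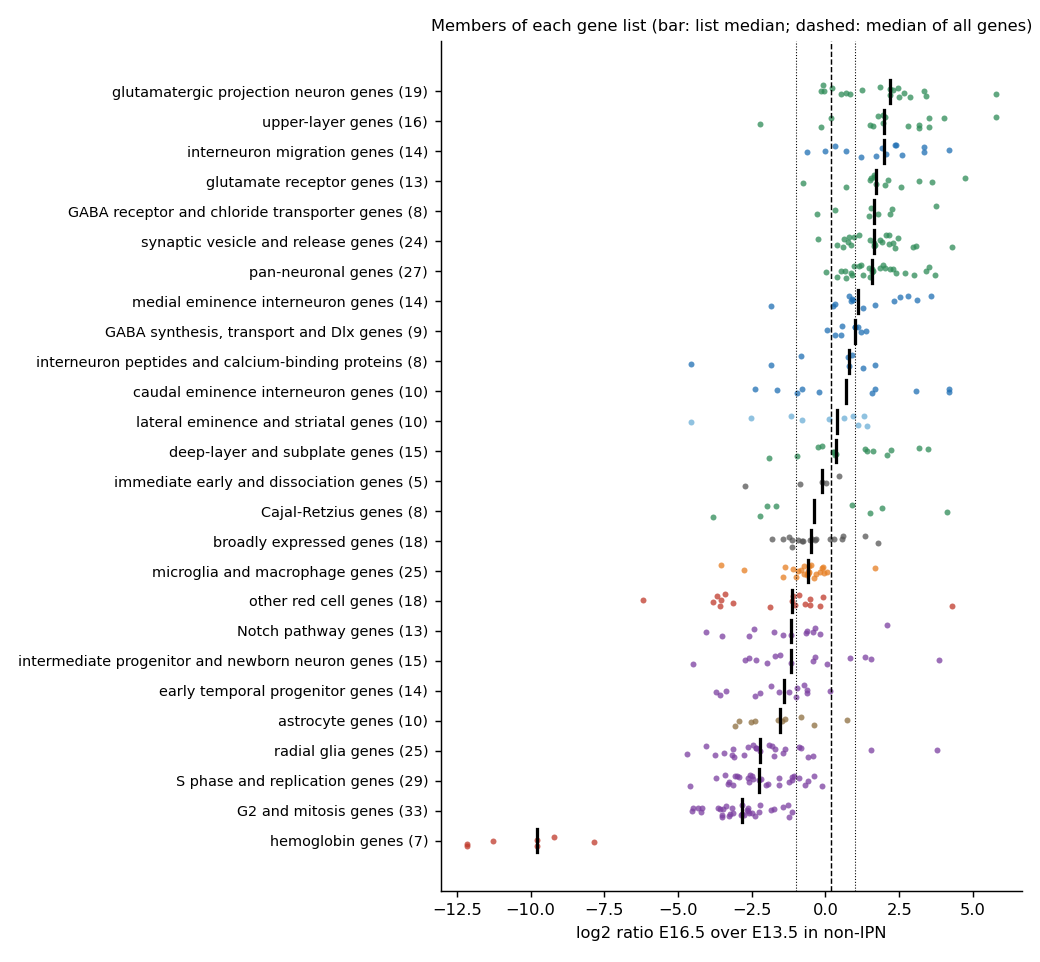
Log2 ratio of E16.5 over E13.5 in non-IPN for each counted member of the gene lists with at least 5 counted members (number in brackets), ordered by list median (black bars), with the median of all genes dashed and the 2-fold lines dotted. The projection neuron median (2.18) and the pan-neuronal median (1.58) lie above the GABA list (0.99), and hemoglobin genes (-9.77) and G2 and mitosis genes (-2.84) lie at the other end.

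Hemoglobin transcripts were abundant at E13.5 and nearly gone at E16.5. Their summed level went from 49253 to 11.8 VPM, from 4.93% of the column total. Hbb-y, the embryonic beta-like globin of primitive red cells, fell from 22799 to 8.11 VPM, a log2 ratio of -11.29. Hba-a1 and Hba-a2, the alpha globins, fell from 11749 and 11757 to 1.59 each. Hba-x, the embryonic zeta globin, fell from 827 to 0.397 (-9.21), and the adult beta globin Hbb-b1 from 944 to 0.0795 (-9.77). Hbb-bh1, another embryonic globin, was at 228 at E13.5 and listed at 0 at E16.5. All 7 counted members fell, beside 14.8% of all genes. Beta-s, a beta globin symbol outside the list, fell from 955 to 0.954 (-8.93).

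The paired values are not independent measurements. Hba-a1 and Hba-a2 are near-identical copies, as are the adult beta globin symbols, and reads may be split between them. The bases just before the start of the alpha copies show the likeness, and Hbb-y, which fell with them, stands beside them for comparison. The sequences are from RefSeq, build GRCm38.p6, and cover the 120 bases before the start, given 5′ to 3′ on the strand of the gene, at chr11:32283552-32283671 (+) for Hba-a1 and chr7:103853208-103853327 (-) for Hbb-y. Capitals mark the motif CCAAT.
Hba-a1: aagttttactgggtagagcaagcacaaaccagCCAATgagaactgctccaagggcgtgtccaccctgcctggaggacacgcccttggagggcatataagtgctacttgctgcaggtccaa
Hbb-y: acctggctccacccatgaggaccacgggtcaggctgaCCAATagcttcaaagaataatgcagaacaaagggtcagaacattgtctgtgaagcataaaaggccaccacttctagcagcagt
The same window of Hba-a2, at chr11:32296372-32296491 (+), shares a run of 117 bases with that of Hba-a1, while Hbb-y shares at most 7 in a row with it.

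Hemoglobin was close to absent from IPN on both days, at 4.91 and 7.39 VPM in sum. In non-IPN at E15.5 it was at 276. The abundant hemoglobin transcripts were thus in 1 library, non-IPN at E13.5.

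Other red cell genes fell less evenly. Of 18 counted members 11 fell and 1 rose, beside 14.8% and 22.1% of all genes. The list median was -1.13 (-0.80 over all 34 found). Slc25a37 (mitoferrin), the mitochondrial iron importer, fell from 82.7 to 0.159 VPM (-6.17). Ermap, an erythroblast membrane protein, fell from 15.2 to 0.159 (-3.80), and Tal1, a factor of blood formation, from 29.0 to 1.59 (-3.54). Slc4a1, the anion exchanger band 3, fell from 12.7 to 0.0795 (-3.67). Genes of this list that many cells use stayed within 2-fold: Prdx2, a peroxidase, was at 516 and 452, and Tfrc, the transferrin receptor, at 115 and 80.2. Alas2, the first enzyme of heme synthesis in red cells, was low on both days, at 9.80 and 5.64. The member that rose was Add2, a membrane skeleton gene also used by neurons, from 0.215 to 23.0 (4.30). On the platelet list only 2 of 12 members were counted, and both rose, Thbs1 from 44.6 to 255 and Gp1bb from 16.2 to 71.6. The median over all 12 found was 0. Pf4, a chemokine that defines platelets, was at 3.72 and 0.238.

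Genes of dividing cells fell as a group. All 33 counted G2 and mitosis genes fell, beside 14.8% of all genes, with a median of -2.84 and a summed level of 6357 to 969 VPM. Hmgb2, a chromatin protein of cycling cells, fell from 1196 to 114 VPM (-3.38), and Mki67, the Ki-67 proliferation marker, from 974 to 187 (-2.38). Top2a, the mitotic topoisomerase, fell from 442 to 77.5 (-2.50). Bub1 and Ttk, kinases of the spindle checkpoint, fell from 131 to 4.77 (-4.52) and from 60.2 to 1.75 (-4.48).

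The promoters of this list share 2 short motifs, and they are shown because the whole list moved together. In windows of 300 bases (250 before to 50 after the start, RefSeq, GRCm38.p6) the letters CCAAT, on either strand, were in 24 of 28 windows of the list (85.7%), beside 37.4% of 32851 windows of all genes. The letters TTTGAA, a core of the cell cycle homology region, were in 22 of 28 (78.6%), beside 17.9%. The windows belong to 26 of the 33 genes. Among other lists with fallen genes, CCAAT was in 5 of 6 hemoglobin windows (83.3%) and 16 of 27 S phase windows (59.3%). It was below the share of all genes in early temporal windows (4 of 14, 28.6%) and astrocyte windows (3 of 17, 17.6%). TTTGAA was in 16.7% of the hemoglobin windows and 11.1% of the S phase windows. The examples below were chosen after their sequences were seen, because the 120 bases before the start hold both motifs. They are Cdc20 (an activator of the anaphase-promoting complex, 44.1 to 5.40 VPM), Cdk1 (the mitotic kinase, 85.7 to 8.58) and Ube2c (the ubiquitin-conjugating enzyme of that complex, 186 to 15.4). They lie at chr4:118437344-118437463 (-), chr10:69352913-69353032 (-) and chr2:164769809-164769928 (+), and capitals mark both motifs on either strand.
Cdc20: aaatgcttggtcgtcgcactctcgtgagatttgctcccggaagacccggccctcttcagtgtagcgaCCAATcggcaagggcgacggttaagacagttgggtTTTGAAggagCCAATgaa
Cdk1: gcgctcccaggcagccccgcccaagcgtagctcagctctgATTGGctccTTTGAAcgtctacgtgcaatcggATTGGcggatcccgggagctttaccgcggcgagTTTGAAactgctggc
Ube2c: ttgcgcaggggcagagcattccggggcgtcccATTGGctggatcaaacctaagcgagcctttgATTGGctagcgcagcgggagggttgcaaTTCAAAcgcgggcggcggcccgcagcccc
A match is a description of the letters and not a measured binding site.

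S phase genes fell in 24 of 29 counted members and rose in none, beside 14.8% and 22.1% of all genes. Their median was -2.24, and their summed level went from 4956 to 1066 VPM. Pcna, the sliding clamp of DNA polymerase, fell from 1175 to 214 (-2.45), and Rrm2, a subunit of ribonucleotide reductase, from 595 to 99.5 (-2.57). Gmnn (geminin), an inhibitor of replication licensing, fell from 137 to 4.69 (-4.60). E2F-like letters (TTTGGCGC, TTTGCCGC, TTTCGCGC or TTTCCCGC, on either strand) were in 9 of 27 promoter windows of this list (33.3%), beside 2.26% of all windows.

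The radial glia genes' sum went from 9092 VPM at E13.5 to 2506 at E16.5, while the pan-neuronal sum went from 7422 to 21033. The 2 sums are over different genes, 27 and 28 of them, so their order on a day does not rank the cell types. Of 25 counted members 19 fell and 2 rose, beside 14.8% and 22.1% of all genes. The list median was -2.23 (-1.91 over all 27 found). Vim (vimentin), an intermediate filament, fell from 2122 to 238 (-3.15). Id4, an inhibitor of bHLH factors, fell from 889 to 33.1 (-4.70), and Hes1, a target of Notch signaling, from 50.6 to 2.15 (-4.04). Fabp7, the brain lipid-binding protein, fell from 1458 to 541 (-1.43). Sox2, at 221 and 146, stayed within 2-fold. The risen members were Ptprz1, a receptor phosphatase, from 180 to 531 (1.56), and Tnc (tenascin C), from 0.644 to 21.7 (3.79).

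Genes of the Notch pathway, which keeps radial glia undifferentiated, fell in 7 of 13 counted members and rose in 1. Their median was -1.17 (-0.75 over all 21 found), and the shares over all genes were 14.8% fallen and 22.1% risen. The ligand Dll1 fell from 123 to 19.7 (-2.58), and the effector Hey1 from 213 to 17.6 (-3.52). Rbpj, the DNA-binding partner of Notch, stayed at 184 and 163. Early temporal genes, which are high in young progenitors, fell in 9 of 14 members and rose in none (median -1.42), among them the chromatin protein Hmga2, from 162 to 11.6 (-3.70).

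Genes of intermediate progenitors and newborn neurons split. Of 15 counted members 8 fell and 3 rose, beside 14.8% and 22.1% of all genes, so the risen share was near the background. The list median was -1.18, or -0.38 over all 20 found. Neurog2, the proneural factor of the cortex, fell from 1139 to 220 (-2.37), and Neurog1 from 61.5 to 1.75 (-4.51). Sox11, a factor of newborn neurons, rose from 2719 to 7876 (1.53), and its level alone turned the summed level upward, from 4916 to 8755 VPM.

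**Figure D4:**
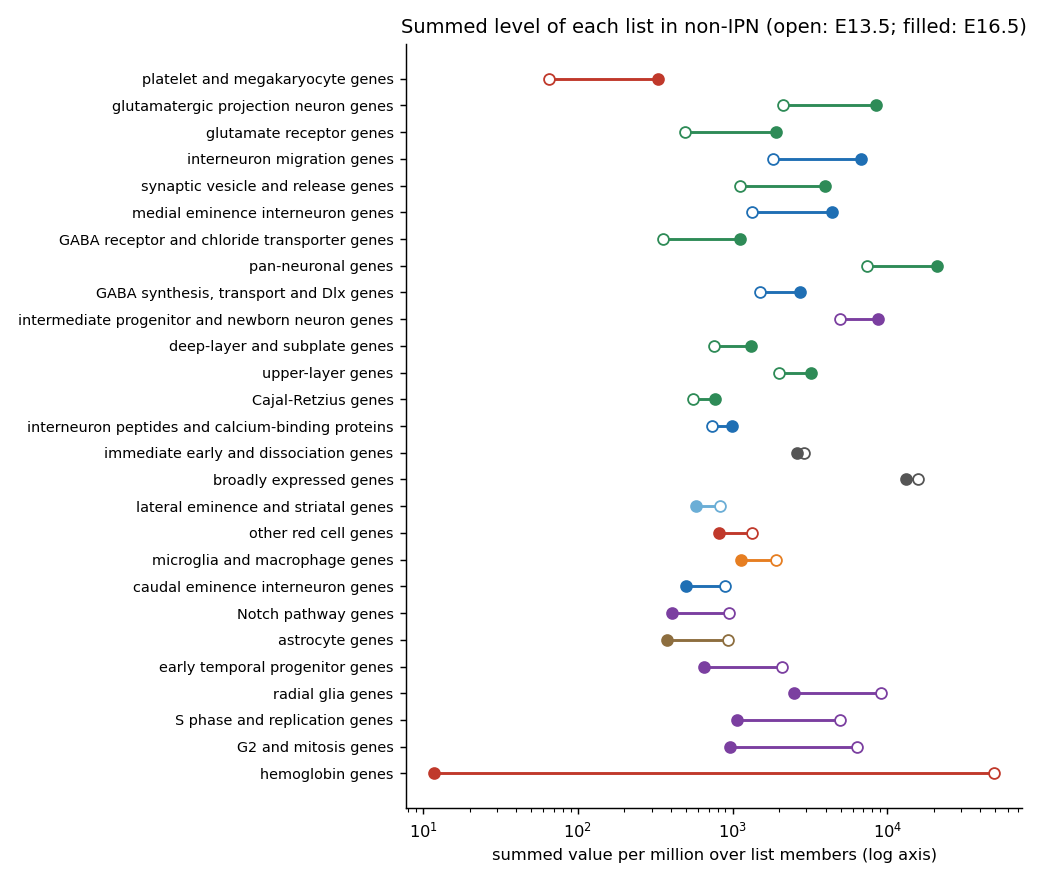
Summed VPM over the members of each list (log axis) in non-IPN at E13.5 (open) and E16.5 (filled), for lists that reached 300 VPM on either day. Hemoglobin genes went from 49253 to 11.8, radial glia genes from 9092 to 2506, and pan-neuronal genes rose from 7422 to 21033.

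Microglia and macrophage genes had a median nearer to 0 than hemoglobin, other red cell or radial glia genes, though the sum of other red cell genes, 1343 and 816 VPM, changed by a like factor. Of 25 counted members 5 fell, a share near the 14.8% of all genes, and 1 rose, with a median of -0.60 and a summed level of 1896 to 1136 VPM. P2ry12, the purinergic receptor of microglia, was at 210 and 136. Sall1, a transcription factor of microglia that radial glia also express, fell from 190 to 27.2 (-2.76), and Aif1 (Iba1) from 38.4 to 2.38 (-3.54). Itgam, an integrin of myeloid cells, rose from 5.51 to 19.7 (1.67). In IPN the list summed to 49.8 and 24.2 VPM, far below non-IPN on both days.

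Astrocyte list genes fell in 7 of 10 counted members, and none rose, beside 14.8% and 22.1% of all genes. Their median was -1.54 (-0.46 over all 18 found). Apoe, a lipid carrier that microglia also make, fell from 94.8 to 33.7 (-1.47). Gja1, the gap junction protein connexin 43, fell from 263 to 33.5 (-2.94); radial glia express it too. Gfap and Aqp4, markers of mature astrocytes, were below 1 VPM on both days. Of 48 genes on the endothelial, meningeal and choroid plexus lists 3 were counted, and the summed level of all 48 was 73.9 and 56.8 VPM.

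Outside cell type lists, 40 of 79 ribosomal protein genes fell and none rose (median -1.04), beside 14.8% and 22.1% of all genes. Their sum went from 65869 to 32455 VPM. In IPN their median was -0.41. Histone genes with the Hist prefix fell in 31 of 36. Genes of sodium and calcium channels rose in 16 of 20 (median 1.69). The log2 ratio also moved with the genomic span of a gene, taken from RefSeq for 99.4% of genes: with genes in 5 groups of equal number, the median was -0.17 in the group of shortest span and 0.73 in that of longest span, beside -0.26 and 0.42 in IPN. The part of span in the list changes was not tested. The medians inside and outside the group of longest span were 1.39 and 1.59 for pan-neuronal genes, 3.15 and 1.51 for upper-layer genes, 1.42 and 0.28 for deep-layer genes and 1.58 and -0.80 for caudal eminence genes.

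Among the 15 largest increases were Nav2, Tmtc1, Mdga2, Igfbp3, Grip1, Bcl6, Opcml, Rph3a, Grin2b, Ccbe1, Ntf3, Arhgap29, Cdh12 and 9030425E11Rik, with log2 ratios from 6.26 to 4.64. Nav2, a cytoskeletal navigator protein, went from 0.715 to 130 VPM. All 15 were also at least 2-fold higher at E16.5 in IPN. The 15 largest decreases were 8 globin symbols, then Slc25a37, Tgif1, Nde1, Id4, Lhx9, Gpr65 and Gmnn. Nde1, a centrosomal protein of dividing progenitors, fell from 105 to 2.62 VPM (-4.87). Tgif1, a homeobox repressor, fell from 41.5 to 0.0795 (-5.30).

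The same comparison in IPN, sorted on the same days, moved fewer genes, with 14.2% of the 10065 genes higher and 9.21% lower at E16.5. Of the 2220 genes that rose in non-IPN 849 also rose in IPN and 54 fell there. Of the 1491 that fell 452 also fell in IPN and 80 rose. List by list, the non-IPN and IPN medians were -2.84 and -2.03 for mitosis genes and -2.23 and -0.36 for radial glia genes. They were 1.58 and 0.63 for pan-neuronal genes, 2.18 and 0.69 for projection neuron genes and 2.00 and 1.75 for upper-layer genes. With 1 library per group the difference between populations was not tested.

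At E16.5, 1750 of the 2220 risen genes (78.8%) were within 2-fold of IPN, beside 84.2% of all 10065 genes. A further 133 (5.99%, beside 4.03% of all genes) were at least 4-fold higher in non-IPN, among them Gad2, Lhx6, Maf, Erbb4, Dlx1 and Nrxn3. Of those 133 genes 17 were on interneuron lists and 105 on no list. The most abundant of the unlisted ones at E16.5, named after their values were seen, were Dact1, a Wnt pathway regulator (349 to 755 VPM), Neb (42.4 to 245) and Shroom2 (73.7 to 224). Of the fallen genes 389 of 1491 (26.1%) were at least 4-fold higher in non-IPN than in IPN at E13.5, beside 6.92% of all genes. Both shares use the library that chose the genes, so an excess on the non-IPN side is built in. Of the 389 genes, 331 were on no list, 29 on progenitor lists, 15 on blood lists and 5 on the microglia list. The unlisted ones included Plagl1, an imprinted zinc finger gene (3934 to 758), Zfp36l1, an mRNA decay factor (971 to 72.5), and Gas1, a membrane protein of the Hedgehog pathway (431 to 54.4).

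**Figure D5:**
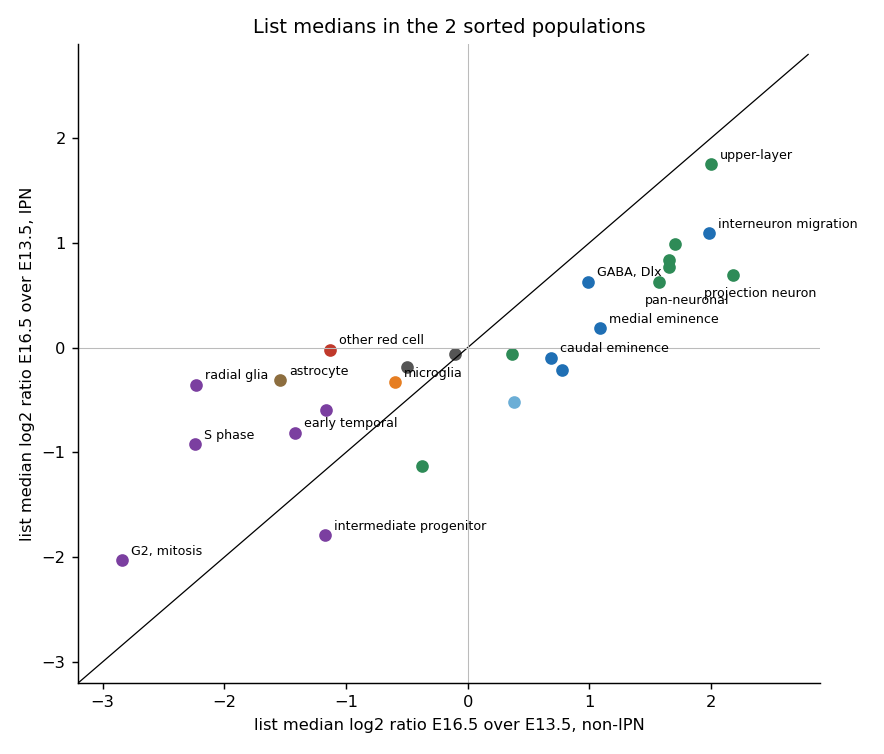
Median log2 ratio of E16.5 over E13.5 of each list with at least 5 counted members, in non-IPN (x axis) and IPN (y axis), with the line of equal change; hemoglobin genes, at -9.77 and 0.50, are left out. Radial glia genes (-2.23 and -0.36) lie far above the line, and pan-neuronal (1.58 and 0.63) and projection neuron genes (2.18 and 0.69) lie below it.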

How the data were processed

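RNA sequencing of sorted cells gave 1 deposited file per library. The build mm9 and the tools TopHat 1.2.0, SAMtools 0.1.18, CASAVA 1.9 and edgeR are named, without roles, per the submitters' processing notes. How reads were counted and scaled is not given in the sources used here. The files pair gene symbols with deposited whole numbers, a signal scaled by the authors and not raw counts, so depth is unknown and no count model or interval was used. The 6 rows of 3 repeated symbols were dropped. Column totals over the remaining genes were 13984144 at E13.5 and 12583033 at E16.5.

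Values were scaled to 1000000 per library (VPM), and log2 ratios were taken with a pseudocount of 1 VPM (Python 3.11.15, pandas, numpy). The 31 gene lists hold 607 entries, of which 605 were found, 4 by an alias or synonym; 2 were not analysed here. Members and lists were chosen with earlier results of these data known. Named genes are, per list, up to 6 members with the highest mean and the 2 furthest past the fold in each direction, plus the 15 largest changes each way among genes with a mean of at least 8 VPM; a few others were named as list markers or after their values were seen. The ratio script was tested on simulated data. Some list members are not reported here. Alternatives covered scaling, pseudocount, filter and fold.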

Additional observations from a re-analysis of the deposited data

Results flagged for a closer look

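Among the genes named by rule, 7 were at least 2-fold changed in opposite directions in the 2 populations, which flags them as a difference between groups. With 1 library per group the difference was not tested. Of these, 5 genes were higher at E16.5 in non-IPN and lower in IPN. Cxcr7, the Cxcl12 receptor, had a log2 ratio of 1.19 in non-IPN (235 to 537 VPM) and went from 106 to 9.85 in IPN, a ratio of -3.30. Grik2, a kainate receptor subunit, had 1.66 and -2.06. Cacna2d2, a calcium channel subunit, had 1.51 and -1.26. Pbx3, a homeobox gene, had 1.09 and -1.45. Lhfpl3 had 1.85 and -2.93. Beta-s (-8.93 and 1.36) and Ermap (-3.80 and 1.40), both red cell genes, went the other way, but in IPN neither exceeded 2 VPM on these 2 days. Over all counted genes 134 moved in opposite directions, 54 of them higher in non-IPN.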

How the results depend on the processing

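No paired analysis was possible because each group has 1 library and the labels give no replicate numbers; for the same reason no library could be left out. No value changed from a called rise to a fall or the reverse. The count of higher genes, 2220, was 1284 with a mean of at least 20, 3541 at a fold of 1.5 and 648 at a fold of 4. It was 1418 without ribosomal protein genes and without the group of genes with the longest span, a choice made after the data were seen. The count of lower genes, 1491, was 876 with a mean of at least 20, 2334 with no filter, 2405 at a fold of 1.5 and 513 at a fold of 4. Of all genes that moved, 59.8% were higher; this was 51.7% with values as deposited and 49.3% with the median ratio set to 0, scalings that shift the median of all genes by -0.15 and -0.19. The hemoglobin median of -9.77 was -12.36 with a pseudocount of 0.1 and -7.55 with 5. The caudal eminence median of 0.69 was -0.95 with a mean of at least 20 and -0.10 with no filter. The value over all 14 found, calculated separately, was -0.05. The distance of this list from the pan-neuronal median, -0.89, became -2.53 with a mean of at least 20 and -1.65 with no filter. The distance of the medial eminence list, -0.48, became 0.12 with members on 1 list only, also chosen after the data were seen. Among other values, 1453 moved by less than 1.5-fold and 143 by more, 61 of the latter with a pseudocount of 0.1 and 69 with 5. Depth is unknown, so values near 0 carry no stated precision.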
